A study of Mus musculus with 32 samples.

Results

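The transcripts of 10 genes of autophagy and of lysosomal transcription were followed across all 8 groups of an RNA sequencing experiment in BV-2 cells. The genes were the transcription factors Tfeb, Tfe3 and Mitf, the initiation genes Ulk1 and Becn1, the ATG8 family genes Map1lc3b, Gabarap and Gabarapl1, the cargo receptor gene Sqstm1 and the mitophagy gene Pink1. They were chosen by name, and all 10 were found among the 45706 genes of the deposited table. BV-2 is an immortalised mouse line with microglial properties, so every library comes from 1 line (genotype WT) and not from microglia of a brain. The cells carried a mimic of miR-146a-5p, miR-7a-5p or miR-29a-3p, or a scramble mimic as control, and received lipopolysaccharide (LPS, 10 ng/ml) or vehicle for 24 h. A mimic is a synthetic RNA duplex that acts as the mature miRNA, and LPS is a bacterial cell wall component that activates macrophages. Each combination had 4 libraries, giving 32 in all. The labels place LPS before transfection whereas the methods of the study place transfection first, so the order is not settled. The labels do not say whether replicates were separate cultures, although the methods describe replicates of this line as independent experiments, so the p-values measure the spread between these libraries.

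Autophagy encloses cytoplasmic material in a double membrane and delivers it to the lysosome for degradation. The ULK1 kinase starts the process, the Beclin complex makes the lipid signal for the growing membrane, ATG8 family proteins such as LC3B coat that membrane, and p62 (the product of Sqstm1) ties ubiquitinated cargo to them. TFEB, TFE3 and MITF are related transcription factors that drive lysosomal and autophagy genes when they enter the nucleus, and PINK1 marks damaged mitochondria for removal. In microglia this machinery meets the phagocytic route, since engulfed material also ends in lysosomes. Transcript levels report on neither the location of a factor nor the flux through the pathway.

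The 3 mature miRNAs are shown because their seeds (bases 2 to 8, in capitals) set which transcript sites they can pair with. The sequences are from RefSeq (GRCm38.p6), and the 3 seeds differ from each other.
miR-7a-5p: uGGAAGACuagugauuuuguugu
miR-29a-3p: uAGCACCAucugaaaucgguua
miR-146a-5p: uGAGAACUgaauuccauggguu

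The 3′UTRs of the 10 genes (GENCODE M21 on GRCm38) were searched for the 7 letters complementary to each seed, on the transcript strand only. For each gene 1 transcript was used, the one with the longest 3′UTR. Whether that transcript is expressed in these cells was not tested. The letters were GTCTTCC for miR-7a-5p, TGGTGCT for miR-29a-3p and AGTTCTC for miR-146a-5p. A match for miR-7a-5p was found in 3 of the 10 genes, a match for miR-29a-3p also in 3, and a match for miR-146a-5p in 0. Over the 10675 tested genes with a 3′UTR, the shares with a match were 13.9%, 15.7% and 12.5%. The 6 matches are printed below with the site in capitals, because the mimic comparisons refer back to them. A match describes letters and does not show that the site is used.
Sqstm1 and miR-7a-5p (chr11:50199870-50199894, minus strand): tgctctcggGTCTTCCtgtcaggtc
Ulk1 and miR-7a-5p (chr5:110785020-110785044, minus strand): ctgaagctcGTCTTCCaggctccag
Becn1 and miR-7a-5p (chr11:101286866-101286890, minus strand): gagcataaaGTCTTCCttcacagag
Tfeb and miR-29a-3p (chr17:47792279-47792303, plus strand): acccccattTGGTGCTaacagctct
Ulk1 and miR-29a-3p (chr5:110786086-110786110, minus strand): cagatccgaTGGTGCTgagactgct
Becn1 and miR-29a-3p (chr11:101286390-101286414, minus strand): aagagcagtTGGTGCTcttaacccc

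Totals ran from 1168591 to 20777696 counts per library. Replicates 2 to 4 of the vehicle miR-7a group stood apart, with 37.0% to 39.6% of their counts on small structural RNA genes against 2.69% to 19.5% in the other 29 libraries. For the genes of the 10 named in comparisons that rest on them, log2 fold changes are also given with replicate 1 as the only library of that group, whereas the counts of the wider lists were not recomputed without them. The summed level of 8 microglia and macrophage markers lay between 2668 and 4567 CPM (counts scaled to the library total) in all libraries. Neuron and astrocyte markers, 4 each, summed to at most 3.07 and 1.37 CPM. The 4 oligodendrocyte markers summed to 2.42 to 18.2 CPM. The labels also call the line glioblastoma, whereas the markers found here are those of microglia and macrophages. The cells were measured in bulk, so fewer cells of a kind and less RNA per cell cannot be told apart.

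Levels are given as CPM after TMM scaling, and between genes only as CPM per kb of exon, counting every annotated exon of the gene. Over the 32 libraries the ATG8 gene Gabarap stood highest at 163 ± 34.9 CPM per kb (SD, n = 32), followed by Sqstm1 at 115 ± 27.3 CPM per kb. The other ATG8 genes came next, Gabarapl1 at 30.5 ± 7.02 and Map1lc3b at 24 ± 5.10 CPM per kb. Pink1 (17.4 ± 6.12 CPM per kb) and Mitf (14.3 ± 2.30 CPM per kb) lay below them. The lowest levels were those of Becn1 (7.47 ± 0.958 CPM per kb), Tfe3 (5.75 ± 1.04 CPM per kb), Ulk1 (5.57 ± 1.47 CPM per kb) and Tfeb (4.69 ± 1.76 CPM per kb). The ranges of neighbours in this order were separate at only 2 steps, between Sqstm1 and Gabarapl1 and between Mitf and Becn1, while all other neighbours overlapped. Among the 3 factors, Mitf was above Tfe3 and Tfeb in every library. Tfe3 and Tfeb overlapped in 6 of the 8 groups, while under LPS Tfe3 lay above Tfeb without overlap with miR-29a (4.55 to 4.97 against 1.92 to 3.03 CPM per kb) and with miR-146a (5.44 to 6.85 against 3.68 to 5.27 CPM per kb). The order of means also shifted between groups, with Sqstm1 above Gabarap in the LPS miR-29a group and Tfeb above Tfe3 in the vehicle scramble group, although these pairs overlapped. Pink1 and Mitf changed places without overlap. Pink1 lay above Mitf in the vehicle scramble group (25.8 to 31.4 against 10.6 to 14.7 CPM per kb). It lay below Mitf in the LPS miR-7a group (8.82 to 12.3 against 12.5 to 16.3 CPM per kb).

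**Figure D1:**
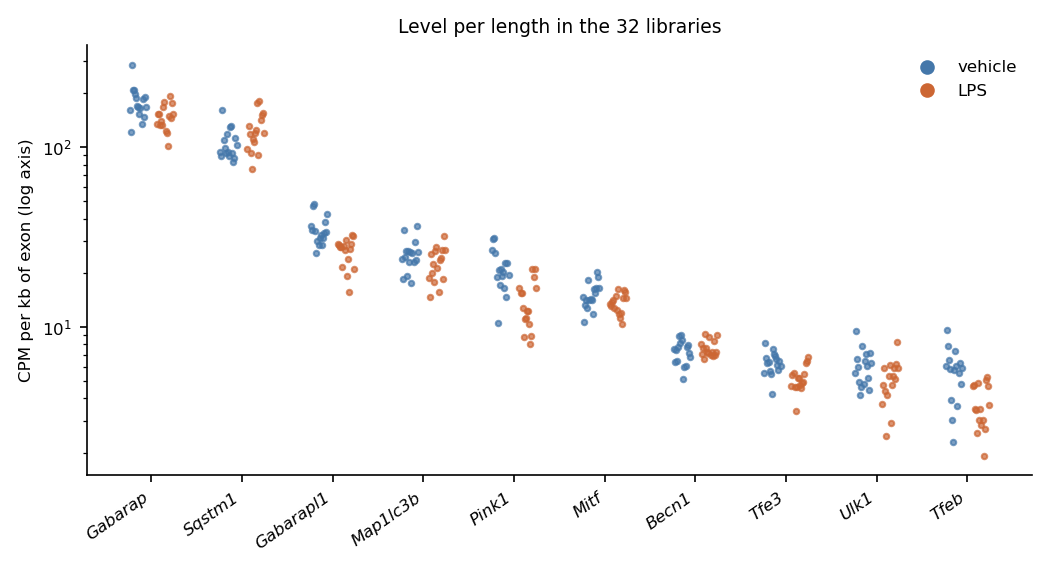
Level of each gene in CPM per kb of exon (log axis) in the 32 libraries, 1 point per library, vehicle in blue and LPS in orange. Genes are ordered by their mean, from Gabarap (163 CPM per kb) to Tfeb (4.69 CPM per kb), and gaps without shared values appear after Sqstm1 and after Mitf.

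The gene positions, all on GRCm38, bear on how well reads can be assigned. The strand used in counting is not given in the sources used here, so reads of a gene and of an overlapping gene on the opposite strand cannot be told apart. Becn1 shares 43.9% of its exon bases with Cntd1, Gabarapl1 28.3% with 1700101I11Rik, Sqstm1 17.3% with Mrnip and Map1lc3b 0.772% with Zcchc14. The mean levels assigned to these partners were 5.05 CPM for Cntd1, 0.0706 CPM for 1700101I11Rik, 4.16 CPM for Mrnip and 102 CPM for Zcchc14. The values of Becn1 are the most uncertain in this respect.

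The first question was how LPS alone moved these genes, in cells with the scramble mimic. Tfeb, Gabarapl1 and Pink1 fell, to between about 0.523 and 0.680 of their vehicle means, and no gene of the 10 rose. A gene was called where limma-voom gave a Benjamini-Hochberg adjusted p under 0.05 over all genes tested and an absolute log2 fold change above 0.3. By this rule 3 of the 10 genes were called, all lower, against 17.7% of all 12437 genes tested in either direction and 8.26% lower. The median log2 fold change was -0.38 over the 10 genes and 0.01 over all genes tested. The share of structural RNA also differed between these groups without overlap, at 6.84% to 13.2% under vehicle and 2.98% to 6.60% under LPS. With structural RNA left out of the library sizes the same 3 genes were called, at -0.91, -0.58 and -0.98 on the log2 scale. The summed oligodendrocyte markers lay at 5.99 to 8.25 CPM under vehicle and 3.87 to 5.33 CPM under LPS, with 1 of the 2 tested called lower, Mbp (-0.91), and the part of this in the results was not tested.

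Tfeb (chr17:47737030-47792419, plus strand, 5.67 kb of exon) encodes the factor best known for switching on lysosomal genes. Its level was 34.6, 54.4, 44.4 and 37 CPM in the 4 vehicle libraries and 26.6, 27.1, 19.9 and 19.5 CPM in the 4 LPS libraries. Every LPS library lay below every vehicle library. The log2 fold change was -0.88 (SE 0.19, adjusted p = 0.0091). Tfe3 (chrX:7762560-7775202, plus strand, 9.26 kb of exon), its close relative, was at 51.2, 75.2, 62.4 and 58.4 CPM under vehicle and 43.6, 50.1, 51.4 and 42.8 CPM under LPS. The ranges touched only through vehicle replicate 1 and LPS replicate 3, and the log2 fold change of -0.38 (SE 0.16, adjusted p = 0.116) missed the threshold. It passed when vehicle replicate 1 was left out (-0.48, adjusted p = 0.0487). Mitf (chr6:97807052-98021349, plus strand, 6.20 kb of exon), the member of the family also known from pigment cells and osteoclasts, was at 65.8 to 90.9 CPM under vehicle and 80.9 to 87.5 CPM under LPS, with overlapping groups and a log2 fold change of 0.04 (SE 0.14, adjusted p = 0.876).

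Ulk1 (chr5:110784488-110810097, minus strand, 6.49 kb of exon) was at 36, 61.8, 43.2 and 38.7 CPM under vehicle and 24.1, 30.9, 38.3 and 28.5 CPM under LPS. The groups overlapped, and the log2 fold change was -0.50 (SE 0.20, adjusted p = 0.103). Becn1 (chr11:101285952-101302286, minus strand, 7.07 kb of exon), which encodes the scaffold of the lipid kinase complex, ran from 45.3 to 53 CPM under vehicle and from 46.9 to 57.1 CPM under LPS, with a log2 fold change of 0.06 (SE 0.14, adjusted p = 0.779).

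Of the ATG8 genes, Gabarapl1 (chr6:129533160-129542346, plus strand, 2.01 kb of exon) was at 73, 69.8, 94.3 and 97.7 CPM under vehicle and 58.1, 57.6, 56.2 and 55.8 CPM under LPS. The LPS values were tight and all below the lowest vehicle value. The log2 fold change was -0.56 (SE 0.15, adjusted p = 0.0246). The call was close to the threshold. The adjusted p was 0.0564, 0.0643 and 0.0689 without LPS replicate 1, 3 or 4, and 0.0659 and 0.0854 without vehicle replicate 3 or 4, where the log2 fold change lay between -0.56 and -0.47. The call was also lost without the filter on low counts (adjusted p = 0.0664). Map1lc3b (chr8:121590361-121598760, plus strand, 7.52 kb of exon) encodes LC3B, the usual marker of autophagosomes. It was at 180.2, 139.5, 261 and 183 CPM under vehicle and 141, 110.3, 191 and 150.1 CPM under LPS. Replicate 3 was the highest and replicate 2 the lowest of each group, so the groups overlapped although each LPS library lay below the vehicle library of its number. The log2 fold change was -0.37 (SE 0.21, adjusted p = 0.241). Gabarap (chr11:69991143-69994951, plus strand, 1.84 kb of exon) ran from 223 to 528 CPM under vehicle and from 246 to 283 CPM under LPS, with a log2 fold change of -0.38 (SE 0.23, adjusted p = 0.27).

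Sqstm1 (chr11:50199366-50210827, minus strand, 3.36 kb of exon) was at 315, 301, 542 and 366 CPM under vehicle and 329, 438, 399.6 and 312 CPM under LPS. The groups overlapped throughout, with a log2 fold change of -0.03 (SE 0.20, adjusted p = 0.923). Pink1 (chr4:138313409-138326307, minus strand, 2.67 kb of exon), the kinase gene of mitophagy, gave the log2 fold change farthest from 0 of the 10 genes. Its level was 71.7, 82.3, 83.8 and 69.1 CPM under vehicle and 43.9, 41.2, 41.2 and 34 CPM under LPS. The groups lay far apart, and the log2 fold change was -0.96 (SE 0.14, adjusted p = 0.00111).

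Libraries with the same replicate number deviated together in this comparison, so a fit with the replicate number as a block was also made. With the block, 6 of the 10 genes were called, all lower, against 24.7% of all genes tested. Tfe3 (-0.41 (adjusted p = 0.0485)), Map1lc3b (-0.37 (adjusted p = 0.0345)) and Ulk1 (-0.55 (adjusted p = 0.0487)) joined Tfeb, Gabarapl1 and Pink1. Sqstm1, Mitf, Becn1 and Gabarap were called in neither fit.

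**Figure D2:**
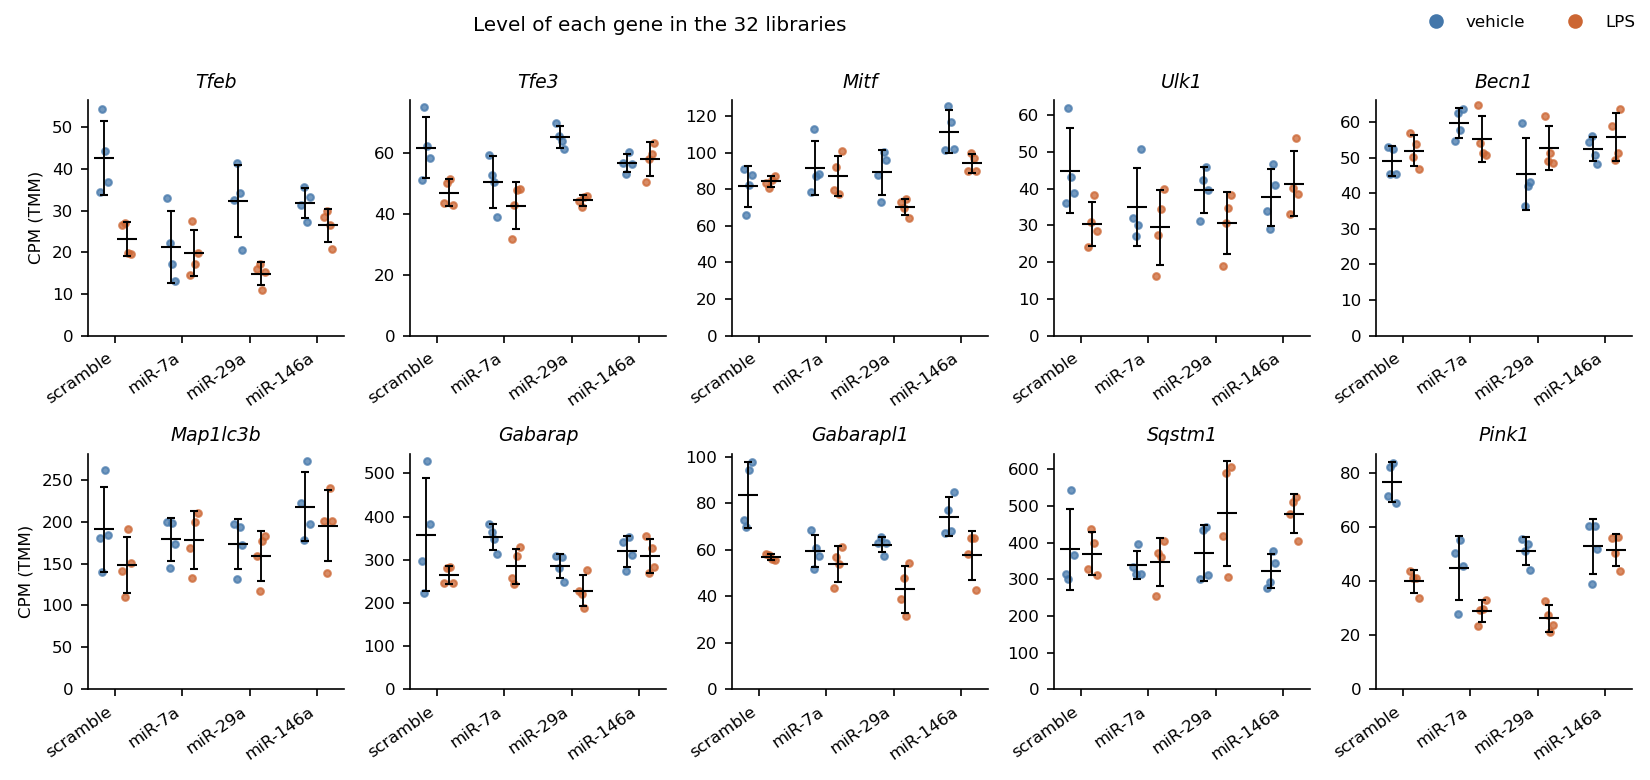
Level of each gene in CPM in the 8 groups, 1 point per library, with the mean and SD of 4 libraries in black, vehicle in blue and LPS in orange. Every axis starts at 0. Tfeb and Pink1 under LPS lie below vehicle with the scramble and miR-29a mimics, while the Pink1 levels of both conditions overlap with miR-146a.

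The same LPS comparison was then made within each mimic. With miR-29a, LPS lowered 4 of the 10 genes, Tfeb, Tfe3, Gabarapl1 and Pink1, against 26.6% of all 12335 genes called in either direction and 13.8% lower. The median log2 fold change was -0.39 over the 10 genes and -0.01 over all genes tested. The summed microglia and macrophage markers lay at 3354 to 3541 CPM under vehicle and 2668 to 3374 CPM under LPS, with 1 of the 8 called higher and 4 lower, and the part of this shift in the results was not tested. Tfeb was at 32.7, 41.6, 34.4 and 20.6 CPM under vehicle and 16.1, 17.2, 10.9 and 15.4 CPM under LPS, a log2 fold change of -1.07 (SE 0.24, adjusted p = 0.0061). Tfe3 was at 69.9, 65.7, 64.1 and 61.3 CPM under vehicle and 44.3, 42.1, 45.5 and 46 CPM under LPS, a log2 fold change of -0.57 (SE 0.12, adjusted p = 0.00517). In both genes the 2 groups did not overlap. Pink1 was at 55.8, 51.2, 53.7 and 44.2 CPM under vehicle and 32.7, 27.7, 21.4 and 23.7 CPM under LPS, a log2 fold change of -1.01 (SE 0.16, adjusted p = 0.00101). Again no LPS library reached the vehicle range.

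Gabarapl1 was at 62.9, 65.4, 57.6 and 63 CPM under vehicle and 38.9, 48, 31.4 and 54.3 CPM under LPS with miR-29a, a log2 fold change of -0.59 (SE 0.17, adjusted p = 0.0266). The LPS libraries spread more widely than with the scramble mimic but stayed below vehicle. The adjusted p rose above 0.05 when LPS replicate 1 (0.0685) or 3 (0.0804) was left out, or vehicle replicate 1 (0.0509), 2 (0.0569), 3 (0.0515) or 4 (0.0647). Without the filter on low counts it was 0.0637. Mitf was at 72.8 to 101 CPM under vehicle and 64.1 to 74.5 CPM under LPS, a log2 fold change of -0.38 (SE 0.13, adjusted p = 0.0562). It was called without vehicle replicate 2 (adjusted p = 0.0308), the library that overlapped the LPS range. Gabarap gave -0.36 (SE 0.14, adjusted p = 0.0835) and was called without LPS replicate 4 (adjusted p = 0.0391). Numbers paired the libraries here too, and with the replicate block 6 of the 10 genes were called, all lower, against 37.1% of all genes tested. Mitf (-0.37 (adjusted p = 0.0237)) and Gabarap (-0.36 (adjusted p = 0.0481)) were the additions.

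With miR-146a, Sqstm1 rose under LPS. It was the 1 of the 10 genes called, against 4.48% of all 12230 genes in either direction and 2.89% higher. Sqstm1 was at 277, 292, 377 and 345 CPM under vehicle and 478, 509, 523 and 404 CPM under LPS, a log2 fold change of 0.55 (SE 0.14, adjusted p = 0.0376). Every LPS library exceeded every vehicle library. The call was not firm, with an adjusted p of 0.0535 by edgeR. It was 0.0734, 0.087 and 0.102 without LPS replicate 1, 2 or 3, and 0.103, 0.115 and 0.0571 without vehicle replicate 1, 2 or 4. Pink1 was at 60.4, 39, 60.4 and 52.1 CPM under vehicle and 56.1, 50.4, 56.3 and 43.9 CPM under LPS. These ranges overlapped almost fully, with a log2 fold change of 0.01 (SE 0.16, adjusted p = 0.981). Tfeb was at 27.2 to 35.7 CPM under vehicle and 20.9 to 29.9 CPM under LPS, a log2 fold change of -0.24 (SE 0.17, adjusted p = 0.497), and Tfe3 gave 0.00 (SE 0.13, adjusted p = 1). Gabarapl1 lay lower under LPS without overlap (42.6 to 65 CPM against 67.1 to 85 CPM) but missed the threshold at -0.37 (adjusted p = 0.223), as did Mitf (89.8 to 99.997 CPM against 102 to 126 CPM) at -0.26 (adjusted p = 0.277).

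With miR-7a, 0 of the 10 genes were called between LPS and vehicle by limma-voom, against 6.91% of all 11983 genes tested. At an unadjusted p under 0.05 there were 2 of the 10 genes, Pink1 and Gabarap, and 2452 of all genes. DESeq2 called 1 gene, Pink1, and edgeR called 0. Pink1 was at 50.5, 28, 55.3 and 45.5 CPM under vehicle and 23.6, 29.6, 29.9 and 33 CPM under LPS. The groups overlapped only through vehicle replicate 2, and the log2 fold change was -0.68 (SE 0.21, adjusted p = 0.0716). Without that library Pink1 was called (log2 fold change -0.83, adjusted p = 0.0356). Tfeb gave -0.36 (SE 0.30, adjusted p = 0.564) and Gabarap -0.35 (SE 0.14, adjusted p = 0.182). With replicate 1 as the only vehicle miR-7a library, an alternative chosen after the data were seen, the log2 fold change was -0.81 for Pink1, -0.78 for Tfeb and -0.45 for Gabarap. The spread then came from the LPS group, as the lone library was assumed to vary like it, and limma-voom called 112 of all 13715 genes, so that 0 called among the 10 genes says little. The share of structural RNA in vehicle replicates 2 to 4 moved with this comparison, and its part in the result was not tested.

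**Figure D3:**
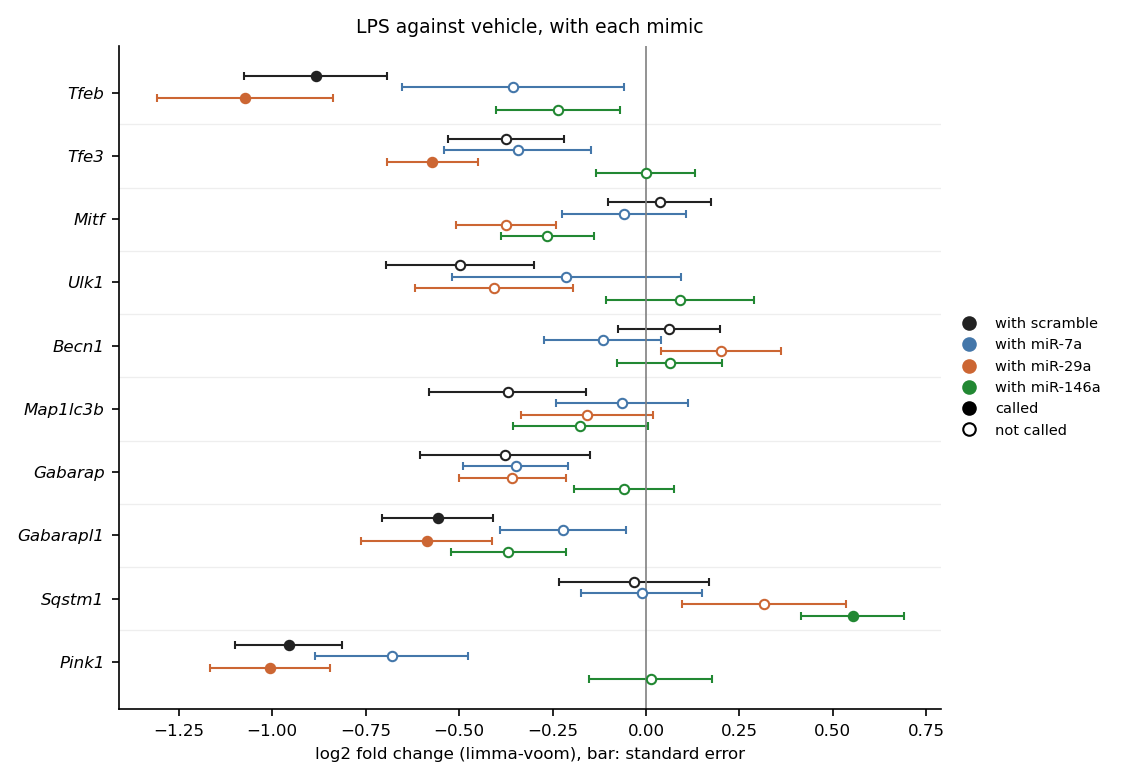
Log2 fold change of LPS against vehicle (x axis) for each gene with each of the 4 mimics, with the standard error as a bar. Filled points passed the threshold. For Pink1 the value is 0.01 with miR-146a, -0.68 with miR-7a, -0.96 with the scramble mimic and -1.01 with miR-29a.

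Whether a mimic altered the LPS response was tested directly as an interaction between mimic and LPS. By limma-voom 0 of the 10 genes passed for miR-7a (0.161% of all 12407 genes tested), 0 for miR-29a (0.0239% of 12566) and 0 for miR-146a (0% of 12609). At an unadjusted p under 0.05 there were 0, 1 and 3 of the 10 genes, against 704, 834 and 1393 of all genes, and edgeR also called 0 of the 10 in each. With replicate 1 as the only vehicle miR-7a library, the miR-7a interaction gave 11 of all 14003 genes and 0 of the 10. The 1 gene for miR-29a was Mitf, with a difference of -0.39 (SE 0.18, adjusted p = 0.726). The 3 genes for miR-146a were Pink1, Tfeb and Sqstm1. For Pink1 the LPS response was higher with miR-146a than with the scramble mimic by 0.97 (SE 0.21, adjusted p = 0.325) on the log2 scale. DESeq2 called this difference (adjusted p = 0.0356), whereas edgeR and all the limma-voom settings tried gave adjusted p-values from 0.0743 to 0.872. The corresponding differences were 0.64 (SE 0.25, adjusted p = 0.396) for Tfeb and 0.59 (SE 0.25, adjusted p = 0.408) for Sqstm1. The Pink1 responses with miR-146a and with scramble were therefore not shown to differ by limma-voom.

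The mimics were next compared with the scramble mimic under LPS. The 3 comparisons share the same 4 scramble libraries, which also serve in the LPS comparison above, so they are not independent of each other. With miR-29a, Pink1 fell, and it was 1 of the 10 genes called, against 5.25% of all 13385 genes in either direction and 3.17% lower. The median log2 fold change was -0.16 over the 10 genes and -0.01 over all genes tested. Pink1 went from 43.9, 41.2, 41.2 and 34 CPM with scramble to 32.7, 27.7, 21.4 and 23.7 CPM with miR-29a, without overlap, a log2 fold change of -0.62 (SE 0.15, adjusted p = 0.0394). Its 3′UTR holds no match to the miR-29a seed. The call was lost without miR-29a replicate 3 (0.116) or 4 (0.0809), and without scramble replicate 1, 2, 3 or 4, where the adjusted p was 0.0887, 0.0841, 0.111 and 0.0639.

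Tfeb, whose 3′UTR holds a match to the miR-29a seed, went from 26.6, 27.1, 19.9 and 19.5 CPM with scramble to 16.1, 17.2, 10.9 and 15.4 CPM with miR-29a under LPS. All 4 miR-29a libraries lay below all 4 scramble libraries. The log2 fold change was -0.64 (SE 0.19, adjusted p = 0.077), short of the threshold. Numbers paired the libraries in this comparison, and with the replicate block Tfeb was called at -0.66 (adjusted p = 0.02), making 2 of the 10 genes against 10.4% of all genes tested. DESeq2 also called Tfeb and Pink1. The other genes with a miR-29a site gave log2 fold changes of -0.03 (SE 0.20) for Ulk1 and 0.02 (SE 0.12) for Becn1. Among all tested genes with a 3′UTR, 4.55% with a miR-29a match and 2.51% without were called lower. Their median log2 fold changes were -0.06 and -0.0002, and whether the Tfeb site is used was not tested. Gabarapl1 (-0.45 (adjusted p = 0.138)) and Mitf (-0.27 (adjusted p = 0.164)) lay lower without overlap but were not called. The summed microglia and macrophage markers were also lowest in the LPS miR-29a group, at 2668 to 3374 CPM against 3454 to 4133 CPM with scramble, and the part of this shift in the results was not tested.

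With miR-7a under LPS, 0 of the 10 genes were called by limma-voom, against 2.89% of all 13131 genes tested. At an unadjusted p under 0.05 there was 1 of the 10 genes, Pink1, and 2309 of all genes, while edgeR and DESeq2 called 0. Pink1 was at 23.6, 29.6, 29.9 and 33 CPM with miR-7a, below all 4 scramble libraries, a log2 fold change of -0.44 (SE 0.14, adjusted p = 0.129). With the replicate block the call count stayed at 0, against 9.11% of all genes tested. The genes with a miR-7a site gave -0.10 (SE 0.17) for Sqstm1, -0.11 (SE 0.25) for Ulk1 and 0.10 (SE 0.13) for Becn1 on the log2 scale. None of these exceeded its standard error.

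With miR-146a under LPS, 0 of the 10 genes were called by limma-voom, against 2.33% of all 12745 genes tested. At an unadjusted p under 0.05 there were 4 of the 10 genes and 2225 of all genes, and edgeR and DESeq2 called 0. All 10 fold changes were above 0, with a median of 0.28 on the log2 scale over the 10 genes and -0.01 over all genes tested. Libraries paired by number here, and with the replicate block 4 of the 10 genes were called, all higher, against 10.2% of all genes tested. Sqstm1 was at 478, 509, 523 and 404 CPM with miR-146a and 329, 438, 399.6 and 312 CPM with scramble, 0.38 (adjusted p = 0.0119) with the block and 0.38 (SE 0.13, adjusted p = 0.173) without. Map1lc3b was at 200.3, 139, 240.4 and 201 CPM with miR-146a and 141, 110.3, 191 and 150.1 CPM with scramble, 0.39 (adjusted p = 0.0112) with the block and 0.40 (SE 0.19, adjusted p = 0.323) without. For Sqstm1 the groups overlapped through replicate 4 of miR-146a and replicate 2 of scramble, and for Map1lc3b each miR-146a library exceeded the scramble library of its number.

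Ulk1 was at 33.2, 40.1, 53.8 and 38.4 CPM with miR-146a and 24.1, 30.9, 38.3 and 28.5 CPM with scramble under LPS, 0.44 (adjusted p = 0.0345) with the block and 0.41 (adjusted p = 0.258) without. Pink1 was at 56.1, 50.4, 56.3 and 43.9 CPM with miR-146a and 43.9, 41.2, 41.2 and 34 CPM with scramble, 0.37 (adjusted p = 0.0366) with the block and 0.42 (adjusted p = 0.115) without. The lowest miR-146a library and the highest scramble library were level for Pink1, and the others did not overlap. Thus Pink1 lay below scramble with miR-29a and miR-7a and above it with miR-146a under LPS. Mitf lay higher with miR-146a without overlap (89.8 to 99.997 CPM against 80.9 to 87.5 CPM) but was called in neither fit (0.17 (adjusted p = 0.418)).

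**Figure D4:**
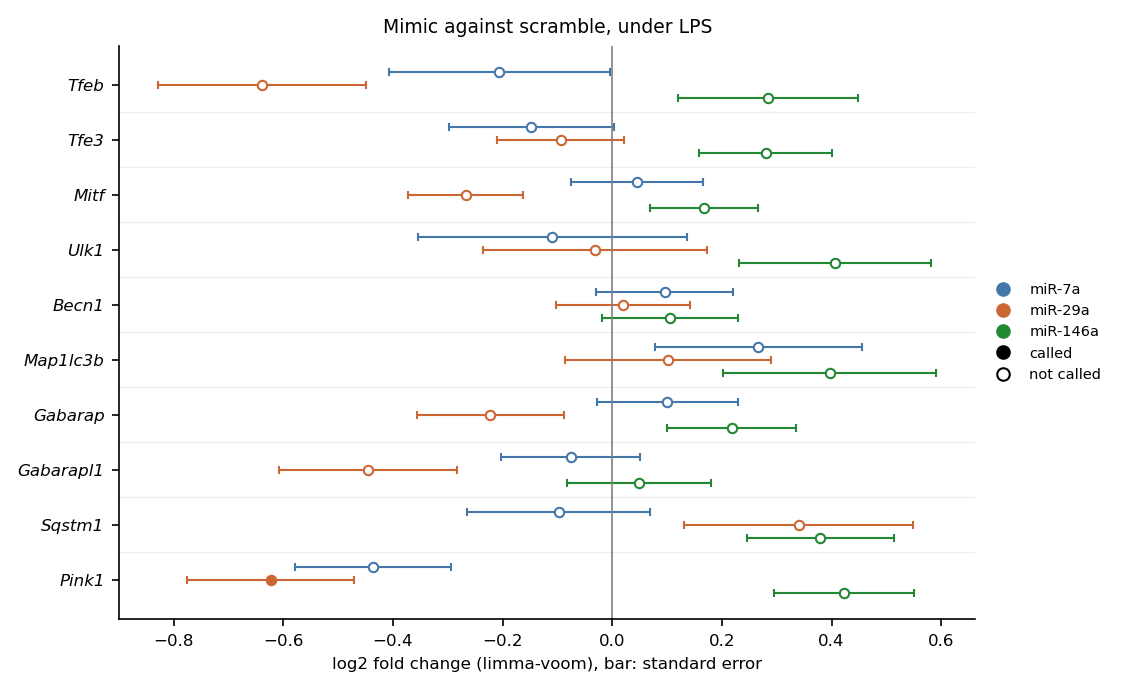
Log2 fold change of each mimic against scramble under LPS (x axis) for each gene, with the standard error as a bar. Filled points passed the threshold without the block. Pink1 lies at 0.42 with miR-146a, -0.44 with miR-7a and -0.62 with miR-29a.

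Under vehicle the mimics were compared with the 4 vehicle scramble libraries, again shared by all 3. None of the 10 genes was called by limma-voom (0 in each), against 0.277% of all 11208 genes for miR-7a, 0.0254% of 11791 for miR-29a and 2.51% of 11939 for miR-146a. At an unadjusted p under 0.05 there were 3, 2 and 2 of the 10 genes, and 1430, 1234 and 3035 of all genes. DESeq2 called 1 of the 10 genes with miR-7a (Pink1, adjusted p = 0.0412) and 0 with the others, and edgeR called 0 in each. In these comparisons the scramble libraries held the highest Pink1 levels of the experiment, at 69.1 to 83.8 CPM. In the miR-146a group Pink1 was at 60.4, 39, 60.4 and 52.1 CPM, in the miR-29a group at 55.8, 51.2, 53.7 and 44.2 CPM and in the miR-7a group at 50.5, 28, 55.3 and 45.5 CPM. None of these 12 libraries reached the scramble range. In the same order, the log2 fold changes were -0.57 (adjusted p = 0.0795), -0.59 (adjusted p = 0.251) and -0.76 (adjusted p = 0.176).

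Tfeb under vehicle was at 33, 22.3, 17.2 and 13 CPM with miR-7a, below all 4 scramble libraries, a log2 fold change of -0.80 (SE 0.28, adjusted p = 0.28). These values rest on few reads, with 27, 28 and 10 counts of Tfeb in replicates 2, 3 and 4 against 181 in replicate 1. With replicate 1 as the only miR-7a library the log2 fold change was -0.36 for Tfeb and -0.62 for Pink1. Here the spread came from the scramble group alone and 9 of all 12686 genes were called, so that 0 called among the 10 genes says little. The share of structural RNA in the other 3 libraries moved with the lower Tfeb values, and its part was not tested. Gabarapl1 was also lower without overlap with miR-7a (-0.45 (adjusted p = 0.343), and -0.30 with replicate 1 alone) and miR-29a (-0.42 (adjusted p = 0.374)). Mitf was higher without overlap with miR-146a, at 102, 126, 117 and 102 CPM against 90.9, 65.8, 82.1 and 87.8 CPM, a log2 fold change of 0.45 (adjusted p = 0.108). Becn1, whose longest annotated 3′UTR holds a miR-7a match, was higher and not lower with miR-7a (54.7 to 63.7 CPM against 45.3 to 53 CPM), at 0.25 (adjusted p = 0.555) and at 0.13 with replicate 1 alone.

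**Figure D5:**
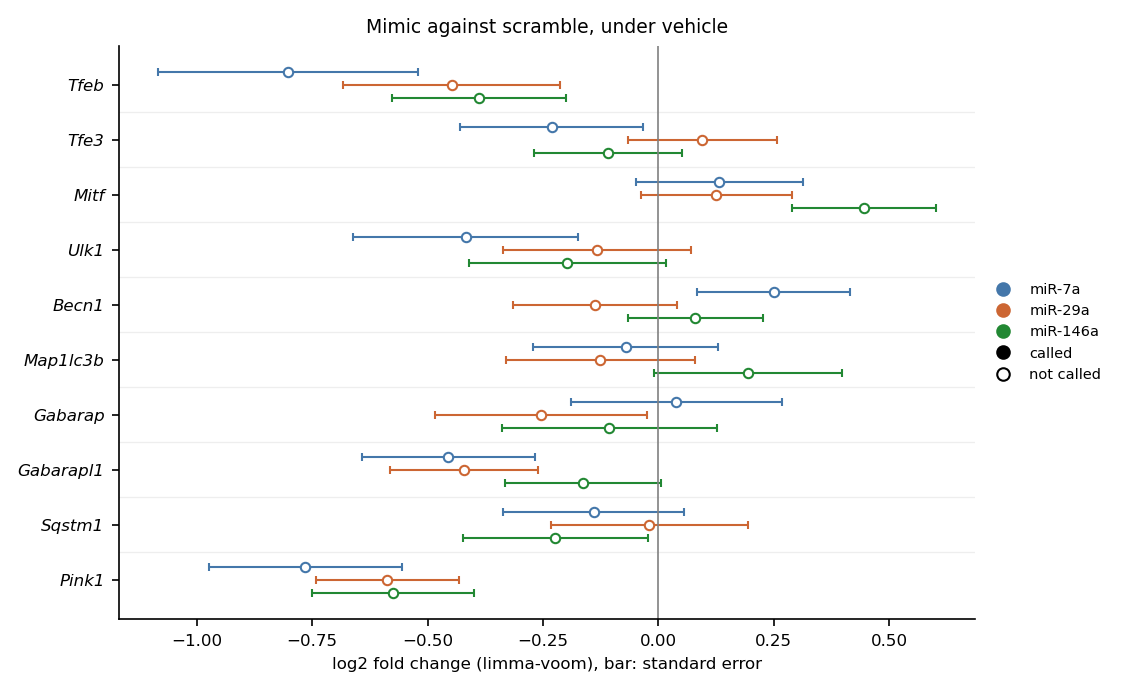
Log2 fold change of each mimic against scramble under vehicle (x axis) for each gene, with the standard error as a bar. No point passed the threshold. Pink1 lies below 0 with all 3 mimics, from -0.76 (miR-7a) to -0.57 (miR-146a).

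The wider pathway was followed through 10 lists of 83 genes that include the 10 genes. LPS in scramble cells raised 3 and lowered 10 of the 81 genes tested, against 9.45% higher and 8.26% lower among all genes. In the blocked fit 5 were higher and 18 lower, against 24.7% of all genes in either direction. The median log2 fold change of the 81 genes was -0.10, against 0.01 over all genes tested. The genes that rose were Atg12 (0.59 on the log2 scale), a ubiquitin-like protein of ATG8 conjugation, Vmp1 (0.95), a membrane protein of phagophore formation, and the receptor gene Tax1bp1 (0.96). Beside Gabarapl1, the ATG8 gene Map1lc3a fell (-1.11). Beside Pink1, the mitophagy genes Park2 (-0.83), which encodes the ubiquitin ligase Parkin, and Phb2 (-0.57) fell. Among genes that control the MiT/TFE factors, Flcn (-0.74), which encodes folliculin, and Lamtor1 (-0.53), an anchor of mTORC1 at the lysosome, fell. Of the fusion genes, Plekhm1 (-0.66) and Tecpr1 (-0.73) fell. In the ULK complex and Beclin complex lists, 0 of 5 and 0 of 8 genes were called by limma-voom, 2 and 1 had an unadjusted p under 0.05, and 2 and 0 were called with the block.

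With miR-29a, LPS raised 5 and lowered 15 of the 81 genes (7 and 24 with the block), against 26.6% of all genes in either direction (37.1% with the block), with a median of -0.15 on the log2 scale. Here Atg13 (-0.75), a partner of ULK1, Atg2a (-1.004), a lipid transfer protein, and the fusion genes Tecpr1 (-1.20) and Plekhm1 (-1.03) fell, while Vmp1 (1.22) and Atg12 (0.71) rose. With miR-7a LPS raised 2 of 80 (Atg12 and Vmp1) and lowered 1 (Phb2), against 6.91% of all genes, and with miR-146a it raised 2 (Vmp1 and Sqstm1) and lowered 0, against 4.48%. Against scramble under LPS, miR-7a raised 1 of 80 and lowered 0 (4 and 4 with the block), miR-29a raised 1 and lowered 2 (2 and 9 with the block), and miR-146a raised 3 and lowered 0 (12 and 0 with the block). The shares of all genes were 2.89%, 5.25% and 2.33% in this order, and 9.11%, 10.4% and 10.2% with the block. The 3 genes raised by miR-146a were Flcn (0.76), Fnip1 (0.47), the folliculin partner, and Tecpr1 (0.55). Under vehicle limma-voom called 1 for miR-146a (Fnip1, 0.76), 0 for miR-7a and 0 for miR-29a, against 2.51%, 0.277% and 0.0254% of all genes. In this order 13, 12 and 4 of the 81 had an unadjusted p under 0.05, against 3035 of all 11939, 1430 of 11208 and 1234 of 11791 genes tested.

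The targets of the MiT/TFE factors among lysosomal genes formed a list of 14, all tested. LPS in scramble cells raised 0 and lowered 1 of them, Hexa (-0.68), a subunit gene of beta-hexosaminidase, against 8.26% of all genes lower, and their median was -0.23 on the log2 scale against 0.01 over all genes tested. With miR-29a LPS raised 1 and lowered 3, Hexa (-1.02), the lysosomal calcium channel gene Mcoln1 (-0.61) and Lamp1 (-0.47), with a median of -0.30 against -0.01 over all genes tested. The shares of all genes were 12.7% higher and 13.8% lower, and with the block 1 of the 14 was higher and 5 lower, against 37.1% of all genes in either direction. With miR-7a limma-voom called 0 of the 14 between LPS and vehicle, against 6.91% of all genes, with 6 at an unadjusted p under 0.05 (2452 of all 11983 genes) and a median of 0.25. The block, whose numbers were not taken to pair here, called 4 higher and 1 lower, against 1776 of all 11983 genes in either direction. Against scramble under LPS, miR-29a lowered 1, Hexa (-0.71), against 3.17% of all genes lower, and for miR-146a limma-voom called 0 of 14, with 1 at an unadjusted p under 0.05. The medians of the 14 genes under LPS were -0.09 with miR-29a, 0.17 with miR-146a and 0.19 with miR-7a.

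The 10 genes also varied together to different degrees. Over the 32 libraries, Pearson r of log2 CPM was 0.78 between Tfeb and Pink1, 0.77 between Tfeb and Gabarapl1, 0.75 between Gabarapl1 and Pink1 and 0.73 between Tfeb and Tfe3. Becn1 ran opposite to Ulk1 (-0.51), Tfe3 (-0.43) and Tfeb (-0.39). Sqstm1 ran from -0.26 with Becn1 and -0.25 with Mitf to 0.27 with Ulk1, and was at 0.02 with Tfeb and 0.03 with Pink1. These values describe libraries that share groups, depth and replicate number. Among 12667 genes, the most similar patterns to Tfeb were those of Ctdsp1 (0.90), Rab11fip5 (0.89) and Cdip1 (0.87), and to Pink1 those of Wdr91 (0.90), Ctsf (0.89) and Gpr183 (0.87). For Gabarapl1 they were Hexa (0.91), Prkch (0.88) and Klc4 (0.88), and for Ulk1 Atg2a (0.87), Flii (0.85) and Zfp319 (0.84). Tfe3 was most like Zyx (0.87), Tpra1 (0.82) and Sh3bp1 (0.81), and Mitf most like Elk4 (0.85), Cacul1 (0.83) and Dmxl1 (0.81). Map1lc3b paired with Sdhc (0.88), Nptn (0.83) and Atp6v1g1 (0.81), and Gabarap with Arf1 (0.88), Tmem50a (0.83) and Anxa5 (0.79). The weakest likeness was found for Becn1 (5730508B09Rik 0.78, Ube2g1 0.77, Atg3 0.77) and Sqstm1 (Prr13 0.71, Neu1 0.70, Flot1 0.69).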

How the data were processed

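RNA of 32 BV-2 libraries was extracted with TRIzol, depleted of ribosomal RNA and prepared as CORALL total RNA libraries by the authors, who quantified reads with the nf-core rnaseq workflow on GRCm38. The deposited table holds estimated counts per gene, made by the authors without normalization, but its values had lost their decimal marks. Each mark was restored by a model that weighs 0 to 3 lost decimals from a value's last digits and size and from the gene's level in like libraries. Of 590874 values above 0, 28.5% were given decimals. All 320 values of the 10 genes had a posterior of at least 0.999, and 125 of them were given decimals. Genes with a value of posterior under 0.9 in a compared library were left out of that comparison.

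Each comparison was fitted on its own libraries with limma-voom (limma 3.58.1, edgeR 4.0.16) after filterByExpr and TMM, the filter and scaling named in the methods of the study, with Benjamini-Hochberg adjustment over all genes tested. The voom weights were chosen here for the linear model, and a log transformation that the methods also describe was not applied. Interactions were fitted on the 4 groups concerned. A gene was called where the adjusted p was under 0.05 and the log2 fold change beyond 0.3 either way. The scripts were tested on simulated data. Alternatives were edgeR's quasi-likelihood test and DESeq2 1.42.0 on rounded counts, RLE factors, library sizes without structural RNA, no filter on low counts, the values as deposited, a posterior of 0.99, a replicate block, 1 fit of all 8 groups, and leaving out each replicate. An alternative that keeps only replicate 1 of the vehicle miR-7a group was chosen after the data were seen. Replicate numbers come from the labels. Deviations from the group means of all 4 same-number pairs correlated above 0.1 in 5 of the 10 comparisons of 2 groups, namely LPS with scramble (0.15 to 0.25), LPS with miR-29a (0.17 to 0.28), and miR-7a (0.24 to 0.45), miR-29a (0.27 to 0.47) and miR-146a (0.13 to 0.41) against scramble under LPS. In these the numbers were taken to pair the libraries. The cutoff was applied to these same data, so it does not show the other comparisons to be unpaired. In every comparison the mean correlation of same-number pairs exceeded that of pairs with other numbers. For miR-29a under vehicle, not taken to pair, the same-number mean was 0.23, as for LPS with miR-29a. With totals of 1168591 to 20777696 counts, 3 counts are worth 0.144 to 2.57 CPM before TMM scaling. The lowest count of the 10 genes was 10, of Tfeb in vehicle miR-7a replicate 4.

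The 10 genes, the pathway lists, the marker lists and the tests were chosen with earlier results of these data known. Named genes are the 10 genes, for each list and comparison the up to 3 called genes with the smallest adjusted p, and for each of the 10 genes the 3 genes with the highest Pearson r of log2 CPM (prior count 2) over the 32 libraries. Becn1 had no entry in the promoter table, and no protein sequences were used here. The calls in the lysosomal target list for miR-7a against scramble under LPS are not reported here.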

Additional observations from a re-analysis of the deposited data

How the results depend on the processing

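The calls of Tfeb and Pink1 with LPS in scramble cells and of Tfeb, Tfe3 and Pink1 with LPS and miR-29a held under every alternative but the values as deposited, which carry the lost decimal marks. On those values 1 of the 10 genes was called with LPS in scramble cells, 0 with LPS and miR-29a, 0 with LPS and miR-146a and 1 (Tfe3) for the interaction of miR-29a and LPS. The log2 fold change of Tfe3 with LPS and miR-29a then turned to 4.55 and that of Sqstm1 with LPS and miR-146a to -7.38. With DESeq2 the counts were 5 for LPS with miR-29a, 2 for miR-29a under LPS, 1 for miR-7a under vehicle, 1 for LPS with miR-7a and 1 for the interaction of miR-146a and LPS. With edgeR the count for LPS with miR-146a was 0. Without the filter on low counts the count was 0 for miR-29a under LPS, 2 for LPS with scramble and 3 for LPS with miR-29a. In the fit of all 8 groups the counts were 4 for LPS with scramble (Tfe3 added), 5 for LPS with miR-29a (Mitf added, as by DESeq2), 1 for miR-7a under vehicle (Pink1), 2 for miR-146a under vehicle (Mitf and Pink1), 1 for LPS with miR-7a and 0 for LPS with miR-146a. The causes of these changes were not tested.

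The replicate block called 6 genes for LPS with scramble, 2 for miR-29a under LPS and 4 for miR-146a under LPS. In the comparisons whose numbers were not taken to pair, the block called 1 gene for miR-7a under vehicle and 1 for LPS with miR-7a (Pink1 in both, with the lowest same-number correlations at -0.08 and 0.07). For LPS with miR-29a it called 6 in place of 4, and it left the other counts of the 10 genes as they were. Leaving out each replicate in turn gave 0 to 1 genes for miR-29a under LPS, 0 to 1 for LPS with miR-7a and 0 to 1 for LPS with miR-146a. The shallowest library held 1168591 counts, in the vehicle miR-7a group, which limits the precision of its values.

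The counts over all genes, which set the background, moved as well. Under LPS, DESeq2 called 822 genes for miR-7a, 1067 for miR-29a and 673 for miR-146a, where limma-voom called 380, 703 and 297, and edgeR called 167 for miR-146a. Under vehicle, DESeq2 called 274, 108 and 1297 where limma-voom called 31, 3 and 300, the fit of all 8 groups 191, 83 and 1609, and the replicate block 365, 66 and 910. For LPS with miR-7a the counts were 828 by limma-voom, 1314 by DESeq2, 1776 with the block and 7900 without the filter on low counts. For LPS with miR-146a they were 548 by limma-voom, 840 by DESeq2, 910 in the fit of all 8 groups and 838 with the block. For the interactions DESeq2 called 103, 23 and 26 genes, and limma-voom 20, 3 and 0. On the values as deposited, LPS with scramble gave 108 genes in place of 2202. Leaving out 1 library also moved the 2202, to 1146 without LPS scramble replicate 4 and to 2910 without vehicle scramble replicate 1.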

Other observations

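Sqstm1 is a known target of NRF2, the factor of the antioxidant response, and 8 other targets of NRF2 formed a list chosen with earlier results known, of which 7 were tested. LPS in scramble cells raised 4 of the 7 and lowered 0, against 9.45% of all genes higher, with a median log2 fold change of 0.65 against 0.01 over all genes tested. They included Hmox1 (1.10), which encodes a heme-degrading enzyme, Slc7a11 (1.10), the cystine transporter gene, and Gclm (0.60), a subunit gene of the enzyme for glutathione synthesis. With miR-29a LPS raised 6 of the 7, against 12.7% of all genes higher, with a median of 1.04, among them Gclm (1.57), Gclc (1.03) and Slc7a11 (1.27). Sqstm1 itself was at -0.03 and 0.32 on the log2 scale in these comparisons and was called in neither. In the LPS comparison with miR-146a, where Sqstm1 was called, 1 of the 7 was called higher, Hmox1 (1.12), against 2.89% of all genes higher. The median of the 7 was 0.61 against -0.02 over all genes tested. At an unadjusted p under 0.05 there were 5 of the 7 here (2246 of all 12230 genes) and 5 with LPS in scramble cells (4152 of all 12437). Under vehicle, miR-146a raised 1 of the 7 against scramble, Slc7a11 (0.98), against 1.08% of all genes higher. In the LPS comparison with miR-7a limma-voom called 0 of the 7, against 6.91% of all genes. There 4 of the 7 and 2452 of all 11983 genes had an unadjusted p under 0.05, and the median was 0.37 against 0.02 over all genes tested. Against scramble under LPS, miR-7a lowered Hmox1 (-1.28) and miR-29a raised Gclm (0.95), each 1 of the 7, against 1.22% of all genes lower and 2.08% higher. With the replicate block 1 was higher and 1 lower with miR-7a, and 4 higher and 1 lower with miR-29a, against 9.11% and 10.4% of all genes in either direction.

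Markers of microglia and macrophages moved with LPS as well. In scramble cells 2 of 8 rose and 3 fell, against 9.45% of all genes higher and 8.26% lower, with Adgre1 at 0.92, Tyrobp at -1.10 and Csf1r at -0.62 on the log2 scale. With miR-29a 1 rose and 4 fell, against 12.7% higher and 13.8% lower, among them Csf1r (-1.14), Tyrobp (-1.28) and Spi1 (-0.83), and Csf1r (-0.72) and Tyrobp (-0.59) also fell with miR-29a against scramble under LPS, 2 of the 8 against 3.17% of all genes lower (6 of the 8 with the block, against 10.4% in either direction).

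The promoters of the 10 genes (250 bases before to 50 after each start, RefSeq) were searched on both strands for CACGTG, the core of the motif that MiT/TFE factors bind. It was found in 0 of the promoters held for 9 of the genes, against 7.15% of the 32851 promoters compared, which do not cover every chromosome. Each of the 9 genes had 1 to 3 promoters, too few to tell 0 from this share. No match says only that these letters are not in this window.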
